A study of Mus musculus with 18 samples.

Results

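The E2F factors and their pocket proteins were followed in GC1spg cells through the 10 genes E2f1 to E2f8, Rb1 and Rbl1, chosen by gene name among the 31643 genes of the deposited count table. All 10 had reads in every one of the 18 libraries (from 203 reads for E2f5 to 3845 for Rbl1), and all 10 passed the filter on low counts in every comparison. The choice of members used no measured value, but it was made with earlier results of these data known.

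GC1spg is a line of mouse male germ cells, taken as a stand-in for spermatogonia. It was immortalised with the large T antigen of SV40, a viral protein that binds the pocket proteins, and all 4 groups share this. The 4 groups were cells with a control siRNA to GFP (siGFP) given DMSO (n = 5) or busulfan (Bu, n = 4), and cells with an siRNA to TGR5, a bile acid receptor encoded by Gpbar1 (siTGR5), given DMSO (n = 5) or Bu (n = 4). Bu is an alkylating agent that crosslinks DNA. Bu was given at 200 μM for 24 h to vehicle-matched cells that the methods describe without naming an siRNA. Dose and time are therefore not stated by name for the siGFP or the siTGR5 cells. Per the methods for cell lines, cells were starved for 12 h before DMSO or Bu, again without naming an siRNA. No source ties the replicates to separate cultures, and the p-values cover only the spread of these samples, which could be technical.

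E2F factors bind DNA at the promoters of cell cycle genes, mostly as dimers with DP proteins. E2F1, E2F2 and E2F3 are counted as activators, E2F4 and E2F5 act mainly as repressors in complex with pocket proteins, E2F6 represses without them through Polycomb complexes, and E2F7 and E2F8 are atypical repressors that bind without a DP partner. The pocket proteins RB1 and p107 (encoded by Rbl1) hold E2F factors in check until cyclin-dependent kinases phosphorylate them, and p107 or p130 together with E2F4 and the MuvB core form the DREAM complex, which silences cell cycle genes in resting cells. In the testis these factors accompany the entry of spermatogonia into division.

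Total counts per library ran from 24745523 to 49638166. Transcripts of rod photoreceptors, which GC1spg cells should lack, summed to over 3 times their median over libraries in 7 of them, namely siGFP DMSO replicates 1 and 5, siGFP Bu replicates 2 and 4, siTGR5 DMSO replicate 4, and siTGR5 Bu replicates 1 and 3. The sums ran from 1.06 to 103 CPM over all libraries. Calls of the 10 genes that change without these libraries are given with both values. Of 11 germ cell markers in the table, 8 averaged under 0.1 CPM, among them Ddx4 (0.0409 CPM) and Dazl (0.00594 CPM). The other 3, Uchl1, Gfra1 and Id4, averaged 60.7, 24.3 and 5.33 CPM. Of 6 fibroblast and myoid markers, 5 averaged at least 1 CPM, among them Col1a1 (2900), Vim (1890) and Acta2 (14.4 CPM), and Myh11 averaged 0.0647 CPM. Of 6 Sertoli cell markers, 4 averaged at least 1 CPM, with Wt1 at 223 and Gata4 at 22.4 CPM, and Cldn11 averaged 0.00302 CPM. Of 3 Leydig cell markers 1 did, Cyp11a1 (5.32 CPM). The siRNA target Gpbar1 ran at 0.111 to 0.864 CPM over the 18 libraries. Its log2 fold change in siTGR5 over siGFP cells was -0.99 with DMSO (standard error 0.28, adjusted p = 0.0135) and -0.38 with Bu (standard error 0.34, adjusted p = 0.425), so its fall passed the test in DMSO only.

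With Bu, the mRNA accumulation of the atypical repressor gene E2f7 and of the pocket protein gene Rbl1 rose in both siGFP and siTGR5 cells, and that of E2f8 and E2f2 rose in siTGR5 cells. In siGFP cells, 2 of the 10 genes were called higher at an adjusted p under 0.05 and 0 lower, where 14.3% of all 14304 genes tested were called higher, 13.8% lower and 28.1% in either direction. In siTGR5 cells, 4 of the 10 were higher and 0 lower, where 15.5% of all 14372 genes tested were called higher, 15.2% lower and 30.7% in either direction. Counted in either direction, the calls among these 10 genes were near the share of all genes, and the called changes were small, at most 25.2% (E2f8 in siTGR5 cells). In bulk samples such as these, a change in the mix of cells and a change in RNA per cell cannot be told apart. The libraries of the DMSO and Bu groups did not overlap for 1 of the 10 genes in siGFP cells, against 23.2% of all genes, and for 4 of 10 in siTGR5 cells, against 24.8% of all genes. The median log2 fold change of the 10 genes was 0.04 in siGFP and 0.06 in siTGR5 cells, and that of all genes tested was 0.00312 and 0.00366.

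The 4 genes that were higher with Bu in either siRNA differ in the letters just before their starts. The 250 bases before the start that RefSeq gives (GRCm38.p6) are shown for these 4 genes, 5′ to 3′ on the strand of each gene, with matches to an E2F site (TTTCGCGC, TTTGGCGC, TTTCCCGC or TTTGCCGC) or to a cell cycle homology region (CHR, TTTGAA or TTCGAA), on either strand, in capitals.
E2f7: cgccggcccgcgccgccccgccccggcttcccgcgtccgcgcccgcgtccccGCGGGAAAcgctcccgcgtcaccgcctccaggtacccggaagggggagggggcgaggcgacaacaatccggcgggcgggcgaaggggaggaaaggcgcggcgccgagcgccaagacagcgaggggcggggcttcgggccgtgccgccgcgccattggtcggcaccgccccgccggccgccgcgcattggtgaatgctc
Rbl1: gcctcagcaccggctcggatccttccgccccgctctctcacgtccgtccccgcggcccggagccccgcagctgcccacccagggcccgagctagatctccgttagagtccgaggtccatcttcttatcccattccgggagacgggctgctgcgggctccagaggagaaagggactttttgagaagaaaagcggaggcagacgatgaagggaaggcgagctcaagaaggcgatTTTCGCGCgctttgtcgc
E2f8: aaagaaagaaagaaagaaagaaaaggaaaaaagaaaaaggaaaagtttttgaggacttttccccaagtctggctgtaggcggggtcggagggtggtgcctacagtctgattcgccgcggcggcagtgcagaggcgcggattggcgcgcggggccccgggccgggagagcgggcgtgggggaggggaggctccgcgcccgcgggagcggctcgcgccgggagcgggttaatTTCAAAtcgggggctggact
E2f2: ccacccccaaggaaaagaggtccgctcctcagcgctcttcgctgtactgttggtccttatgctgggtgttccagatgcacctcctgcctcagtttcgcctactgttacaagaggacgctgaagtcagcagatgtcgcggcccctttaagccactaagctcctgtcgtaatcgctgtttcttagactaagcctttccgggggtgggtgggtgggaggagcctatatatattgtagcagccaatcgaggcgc
The windows are chr10:110745189-110745438 on the plus strand for E2f7, chr2:157204535-157204784 on the minus strand for Rbl1, chr7:48881597-48881846 on the minus strand for E2f8 and chr4:136172024-136172273 on the plus strand for E2f2. E2f7 held GCGGGAAA, the reverse complement of an E2F site, starting 198 bases before the start, and Rbl1 held TTTCGCGC 18 bases before it. E2f8 held TTCAAA, the reverse complement of a CHR, 20 bases before the start and no E2F match, and E2f2 held neither in this window. Of all 32851 RefSeq windows of this length, 1.86% held an E2F match and 17.1% a CHR match. Among members that were not called with Bu, E2f3 held both, an E2F match 11 bases and a CHR match 23 bases before the start, and E2f6 held neither. These are matches of letters only. RefSeq gives further windows that lie inside the gene and are not shown, the only window of E2f1 and another start each of E2f2 and E2f3, and that of E2f2 held a CHR match (TTTGAA) 31 bases before its start. E2f4, E2f5 and Rb1 were not matched.

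Levels of different genes were compared as normalised read counts (CPM) per kilobase of the union of each gene's exons, averaged over the 18 libraries. E2f1 stood first with 21.5 CPM per kb (19.5 to 22.8 over libraries), above Rbl1 in 18 of 18 libraries. Averaged over all 18 libraries, Rbl1 (13.3) and E2f4 (13.2) were nearly equal. Rbl1 was the higher of the pair in 8 of 18 libraries, and the order of their means changed with treatment. With DMSO the mean of E2f4 was the higher, at 14.1 against 12.7 in siGFP and 13.3 against 12.7 in siTGR5 cells. With Bu that of Rbl1 was the higher, at 14.0 against 12.5 and 14.2 against 12.6 CPM per kb. Rbl1 stood above E2f4 without overlap in 1 of the 4 groups. Rbl1 and E2f4 were both above Rb1 (6.97 CPM per kb, 5.97 to 8.11), which in turn was above E2f2 in 18 of 18 libraries. E2f2 (5.16) and E2f3 (5.12) overlapped in every group, as did E2f3 and E2f5 (5.07), so these neighbours did not differ beyond their spread. On the averages over all 18 libraries E2f8 (4.37), E2f7 (4.18) and E2f6 (3.55 CPM per kb) came last. E2f7 was above E2f6 in 17 of 18 libraries but without overlap in only 2 of the 4 groups. In siGFP Bu the mean of E2f5 (4.15) was below those of E2f7 (4.53) and E2f8 (4.7). The mean of E2f3 (4.64) was also below that of E2f8 there. The order of the genes depended on the length used. The deposited table gives median transcript lengths of 827 bases for E2f7 and 409.5 for Rb1. These are short beside their exon unions of 9009 and 6015 bases. With the deposited lengths Rb1 stood first with 102.0 CPM per kb and E2f7 second with 45.5. Rbl1 (31.3) and E2f4 (28.1) then stood above E2f1 (24.7). E2f6 (8.51) stood above E2f3 (6.05) and E2f5 (5.11 CPM per kb).

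**Figure D1:**
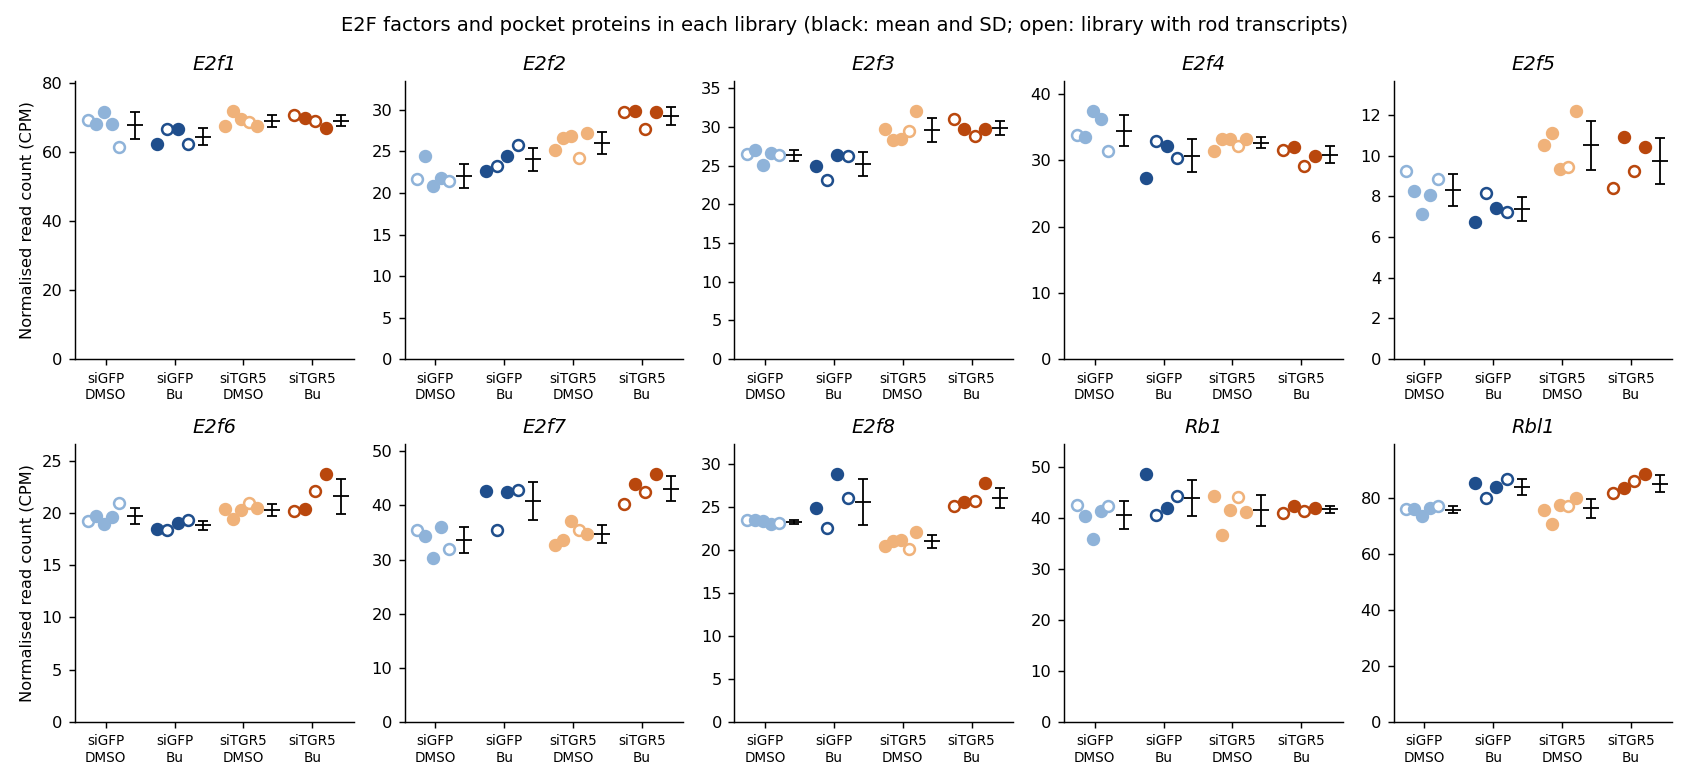
Normalised read count in CPM (y axis, from 0) of each of the 10 genes in each of the 18 libraries, by group (x axis), with the group mean and SD in black and libraries that held rod transcripts as open points. E2f7 and Rbl1 sit higher with Bu in both siRNAs, replicate 2 of siGFP Bu lies close to the DMSO libraries for E2f7 (35.5 CPM), and E2f5 sits higher in both siTGR5 groups.

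Among the activators, E2f1 (ENSMUSG00000027490, chromosome 2, 154559407 to 154569892, minus strand), whose product drives S phase genes and can also induce apoptosis, did not pass the test in any comparison. It measured 69.3, 68.2, 71.6, 68.3 and 61.4 CPM in replicates 1 to 5 of siGFP DMSO and 62.3, 66.6, 66.6 and 62.4 CPM in siGFP Bu. In siTGR5 cells it measured 67.5, 72.0, 69.6, 68.7 and 67.7 CPM with DMSO and 70.8, 69.8, 69.1 and 67.0 CPM with Bu. The groups overlapped within each siRNA. The log2 fold change of Bu over DMSO was -0.06 (95% interval -0.16 to 0.05) in siGFP and 0.01 (-0.06 to 0.08) in siTGR5 cells. With Bu, every siTGR5 library was above every siGFP library, at a log2 fold change of 0.09 (adjusted p = 0.13).

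E2f2 (ENSMUSG00000018983, chromosome 4, 136172394 to 136196057, plus strand) measured 21.7, 24.5, 20.8, 21.8 and 21.4 CPM in siGFP DMSO and 22.7, 23.2, 24.5 and 25.8 CPM in siGFP Bu. Replicate 2 of siGFP DMSO reached the level of the Bu libraries. Bu over DMSO gave 0.14 as log2 fold change (standard error 0.059, adjusted p = 0.0853), and without that replicate it was 0.18 and passed the test (adjusted p = 0.0295). In siTGR5 cells it measured 25.2, 26.6, 26.9, 24.2 and 27.2 CPM with DMSO and 29.8, 29.9, 27.7 and 29.7 CPM with Bu, all Bu libraries above all DMSO libraries. This rise of 0.18 on the log2 scale (standard error 0.046) passed the test (adjusted p = 0.00633, exact two-sided permutation p = 0.00794, the smallest that 126 splits allow), although without the libraries holding rod transcripts its size of 0.18 no longer did (adjusted p = 0.0597). E2f2 was also higher in siTGR5 than in siGFP cells, by 0.24 on the log2 scale with DMSO (with a standard error of 0.05, adjusted p = 0.00165) and by 0.28 with Bu (standard error 0.055, adjusted p = 0.00161).

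E2f3 (ENSMUSG00000016477, chromosome 13, 29906575 to 29986063, minus strand), the activator that also gives rise to a shorter repressor isoform not resolved by gene counts, did not pass the test with Bu. It measured 26.5, 27, 25.1, 26.7 and 26.4 CPM in siGFP DMSO and 24.9, 23.1, 26.4 and 26.3 CPM in siGFP Bu. In siTGR5 cells it measured 29.8, 28.3, 28.4, 29.5 and 32.1 CPM with DMSO and 31.0, 29.8, 28.9 and 29.8 CPM with Bu. Every siTGR5 library was therefore above every siGFP library, whatever the treatment. The rise in siTGR5 over siGFP cells was 0.17 on the log2 scale with DMSO (with a standard error of 0.043, adjusted p = 0.0075) and 0.24 with Bu (standard error 0.054, adjusted p = 0.00426). Without the libraries holding rod transcripts these values were 0.17 (adjusted p = 0.052) and 0.21 (adjusted p = 0.071), and neither passed the test. The log2 fold change of Bu over DMSO was -0.05 (95% interval -0.16 to 0.06) in siGFP and 0.03 (-0.07 to 0.12) in siTGR5 cells.

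Among the repressors, E2f4 (ENSMUSG00000014859, chromosome 8, 105297663 to 105305370, plus strand), the E2F of the DREAM complex, had lower means with Bu in both siRNAs, which did not pass the test. It measured 33.8, 33.6, 37.5, 36.2 and 31.5 CPM in siGFP DMSO and 27.3, 32.9, 32.2 and 30.4 CPM in siGFP Bu, so the groups overlapped through replicate 5 of DMSO, a library with rod transcripts. Bu over DMSO gave -0.15 as log2 fold change (standard error 0.063, adjusted p = 0.0813). It passed the test without replicate 5 of siGFP DMSO (-0.19, adjusted p = 0.031), without replicate 2 of siGFP Bu (-0.19, adjusted p = 0.0414), without the libraries holding rod transcripts (-0.26, adjusted p = 0.0287) and with all 18 libraries in 1 fit (-0.16, adjusted p = 0.0274). In siTGR5 cells E2f4 measured 31.4, 33.3, 33.2, 32.2 and 33.3 CPM with DMSO and 31.6, 32.0, 29.1 and 30.7 CPM with Bu, a log2 fold change of -0.07 (95% interval -0.16 to 0.02). The siRNA comparisons of E2f4 gave -0.08 with DMSO (adjusted p = 0.213) and less than 0.01 in size with Bu (adjusted p = 0.982).

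E2f5 (ENSMUSG00000027552, chromosome 3, 14578641 to 14606309, plus strand), a repressor that works with p130, had the lowest CPM of the 10 genes and the widest intervals. It measured 9.23, 8.25, 7.14, 8.06 and 8.85 CPM in siGFP DMSO and 6.74, 8.17, 7.41 and 7.24 CPM in siGFP Bu. In siTGR5 cells it measured 10.5, 11.1, 9.32, 9.43 and 12.2 CPM with DMSO and 8.4, 10.9, 9.22 and 10.4 CPM with Bu. Within each treatment every siTGR5 library was above every siGFP library, while DMSO and Bu overlapped in both siRNAs. The rise in siTGR5 over siGFP cells was 0.33 on the log2 scale with DMSO (with a standard error of 0.084, adjusted p = 0.00743) and 0.38 with Bu (standard error 0.095, adjusted p = 0.00674), the largest siRNA difference of the 10 genes in both treatments. Without the libraries holding rod transcripts the value with Bu was 0.59 (adjusted p = 0.0042). For Bu over DMSO the log2 fold change was -0.16 (95% interval -0.35 to 0.02) in siGFP and -0.10 (-0.29 to 0.09) in siTGR5 cells.

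E2f6 (ENSMUSG00000057469, chromosome 12, 16810963 to 16839742, plus strand), which represses through Polycomb partners, measured 19.2, 19.7, 19, 19.6 and 21 CPM in siGFP DMSO and 18.5, 18.4, 19.1 and 19.3 CPM in siGFP Bu. In siTGR5 cells it measured 20.4, 19.4, 20.3, 21 and 20.5 CPM with DMSO and 20.2, 20.4, 22.1 and 23.8 CPM with Bu. Its log2 fold change with Bu was -0.05 (95% interval -0.16 to 0.06) in siGFP and 0.10 (-0.01 to 0.22) in siTGR5 cells, and neither passed the test. With Bu it was higher in siTGR5 than in siGFP cells by 0.19 on the log2 scale (with a standard error of 0.062, adjusted p = 0.0324). This call was lost at fold changes of similar size, 0.18 without replicate 1 of siGFP Bu (adjusted p = 0.058), 0.20 without its replicate 3 (adjusted p = 0.0511), 0.18 without replicate 3 of siTGR5 Bu (adjusted p = 0.0751), 0.14 without its replicate 4 (adjusted p = 0.127) and 0.23 without the libraries holding rod transcripts (adjusted p = 0.106). With DMSO the difference between siRNAs was 0.04 (adjusted p = 0.5).

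Among the E2F genes called with Bu, the atypical repressors had the largest rises. E2f7 (ENSMUSG00000020185, chromosome 10, 110745439 to 110787384, plus strand), a transcriptional target of E2F1, measured 35.4, 34.3, 30.2, 36.0 and 31.9 CPM in siGFP DMSO and 42.6, 35.5, 42.4 and 42.9 CPM in siGFP Bu. Replicates 1, 3 and 4 of Bu were above all DMSO libraries, while replicate 2, which held rod transcripts, lay below replicate 4 of DMSO. The rise was 0.30 on the log2 scale, or 23.1% (standard error 0.064, adjusted p = 0.00288, exact two-sided permutation p = 0.0159). In siTGR5 cells E2f7 measured 32.7, 33.6, 37.1, 35.4 and 34.8 CPM with DMSO and 40.2, 43.9, 42.5 and 45.9 CPM with Bu, without overlap. This rise was 0.32 on the log2 scale, or 25.1% (standard error 0.047, adjusted p = 5.60e-05, exact permutation p = 0.00794). Over all settings that left out libraries, the rise stayed called, from 0.26 to 0.36 in siGFP and from 0.29 to 0.36 on the log2 scale in siTGR5 cells with 1 library left out, and at 0.36 and 0.38 without the libraries holding rod transcripts. E2f7 did not pass the test between siRNAs (0.05 with DMSO, adjusted p = 0.475, and 0.07 with Bu, adjusted p = 0.448).

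E2f8 (ENSMUSG00000046179, chromosome 7, 48866429 to 48881596, minus strand), the partner of E2F7 in repressing E2F1, measured 23.5, 23.5, 23.4, 23.0 and 23.1 CPM in siGFP DMSO and 24.9, 22.5, 28.9 and 26.1 CPM in siGFP Bu. Replicate 2 of Bu was below every DMSO library and the other 3 were above all of them. Bu over DMSO gave 0.15 as log2 fold change (standard error 0.06, adjusted p = 0.0749), and it passed the test at 0.20 without that replicate (adjusted p = 0.013) and at 0.14 with all 18 libraries in 1 fit (adjusted p = 0.0417). In siTGR5 cells E2f8 measured 20.5, 21.1, 21.2, 20.1 and 22.1 CPM with DMSO and 25.1, 25.6, 25.7 and 27.8 CPM with Bu, without overlap. This rise was 0.32 on the log2 scale, or 25.2% (standard error 0.047, adjusted p = 6.22e-05, exact permutation p = 0.00794). The DMSO levels differed between siRNAs, with siTGR5 libraries all below siGFP libraries (log2 fold change -0.15, standard error 0.04, adjusted p = 0.00959), and -0.14 without the libraries holding rod transcripts (adjusted p = 0.0712). With Bu the siRNAs gave nearly equal means of 25.6 and 26.1 CPM (log2 fold change 0.02, 95% interval -0.13 to 0.16). Gm2788, a gene on the opposite strand at a mean of 1.17 CPM, shares 11.2% of the E2f8 exon bases. The kit marked strand, but the strand setting of the counting is not given in the sources used here, so reads of the pair may not be told apart.

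Among the pocket proteins, Rb1 (ENSMUSG00000022105, chromosome 14, 73183673 to 73325822, minus strand), the retinoblastoma gene, measured 42.6, 40.5, 35.9, 41.5 and 42.5 CPM in siGFP DMSO and 48.8, 40.7, 42.1 and 44.4 CPM in siGFP Bu, with overlap. Bu over DMSO gave 0.13 as log2 fold change (standard error 0.06, adjusted p = 0.115), and 0.23 without the libraries holding rod transcripts, where it passed the test (adjusted p = 0.0488). In siTGR5 cells Rb1 measured 44.3, 36.8, 41.6, 44.2 and 41.2 CPM with DMSO and 41.0, 42.4, 41.5 and 42.1 CPM with Bu. The Bu libraries all lay within the range of the DMSO libraries, and the log2 fold change was 0.02 (95% interval -0.08 to 0.12). Opposite-strand exons of Rcbtb2 and Lpar6, at means of 30.3 and 9.39 CPM, share 8.11% and 6.78% of the Rb1 exon bases.

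Rbl1 (ENSMUSG00000027641, chromosome 2, 157145893 to 157204534, minus strand), itself a target of E2F, measured 76.1, 76.2, 73.6, 76.5 and 77.1 CPM in siGFP DMSO and 85.3, 80.2, 83.9 and 86.8 CPM in siGFP Bu. All Bu libraries were above all DMSO libraries. The rise was 0.16 on the log2 scale, or 11.9% (standard error 0.036, adjusted p = 0.00392, exact two-sided permutation p = 0.00794). In siTGR5 cells Rbl1 measured 75.9, 70.8, 77.7, 77.1 and 80.0 CPM with DMSO and 81.8, 83.6, 86.3 and 88.8 CPM with Bu, again without overlap. This rise was 0.17 on the log2 scale, or 12.5% (standard error 0.038, adjusted p = 0.00265, exact permutation p = 0.00794), and the call held in every setting tried in both siRNAs. Rbl1 was nearly equal between siRNAs (log2 fold change 0.01 in both treatments, 95% interval -0.06 to 0.08 with DMSO and -0.08 to 0.10 with Bu). Rbl2, which encodes the pocket protein p130 and was looked at only after its values were seen, rose with Bu by 0.17 in siGFP (adjusted p = 0.00523) and 0.11 on the log2 scale in siTGR5 cells (adjusted p = 0.0138), and it was higher in siTGR5 than in siGFP cells by 0.23 with DMSO (adjusted p = 1.57e-05) and 0.16 with Bu (adjusted p = 0.0127).

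**Figure D2:**
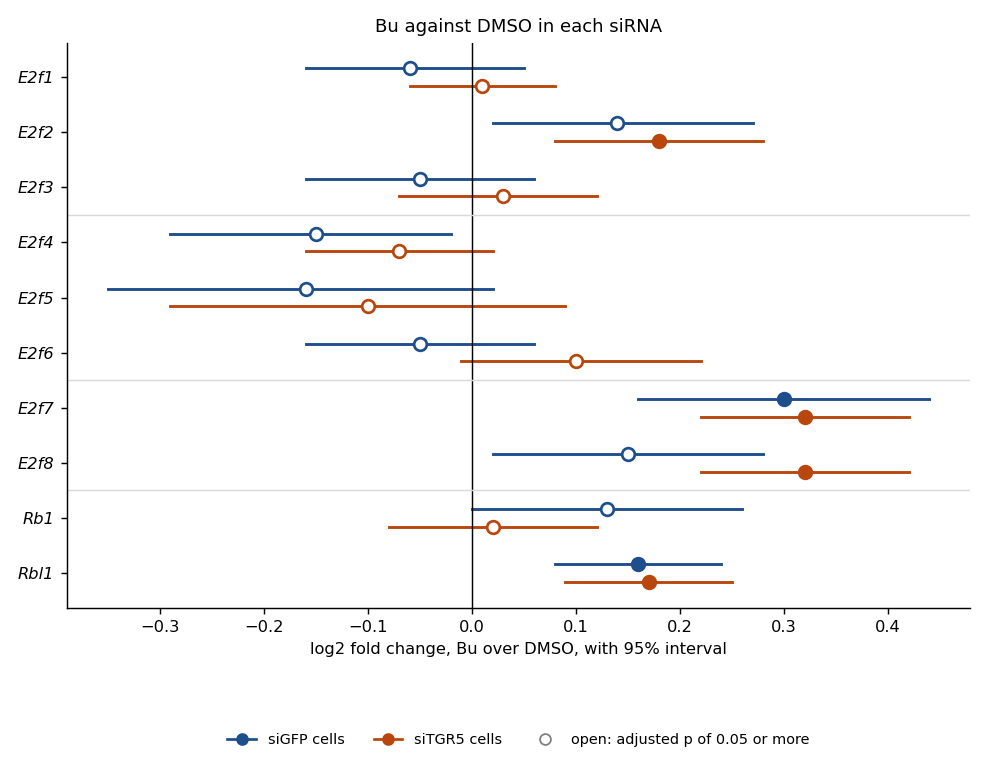
Log2 fold change of Bu over DMSO (x axis) for each of the 10 genes (y axis) in siGFP and siTGR5 cells, with its 95% interval, filled where the adjusted p was under 0.05. E2f7 and Rbl1 are filled in both siRNAs, at 0.30 and 0.32 and at 0.16 and 0.17, and E2f2 and E2f8 in siTGR5 cells only, where the difference between siRNAs did not pass its own test.

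Whether the response to Bu differed between the siRNAs was tested directly over all 18 libraries. By edgeR 0 of the 10 genes passed, as by DESeq2, where 1.37% of all 14783 genes tested did. At an unadjusted p under 0.05 there were 2, E2f8 and E2f6. For E2f8 the effect of Bu was larger in siTGR5 cells by 0.18 on the log2 scale (95% interval 0.02 to 0.33, adjusted p = 0.297), and for E2f6 by 0.15 (0.01 to 0.30, adjusted p = 0.349). For E2f7 and Rbl1 the difference was 0.02 (-0.15 to 0.20) and 0.01 (-0.10 to 0.11). The call of E2f2 and E2f8 in siTGR5 cells only is thus no measured difference between the siRNAs.

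Between the siRNAs, E2f2, E2f3 and E2f5 were higher in siTGR5 than in siGFP cells in both treatments. With DMSO, 3 of the 10 genes were higher and 1, E2f8, was lower in siTGR5 than in siGFP cells, where 13.8% of 14292 genes were called higher, 14.4% lower and 28.3% in either direction. With Bu, 4 were higher (E2f6 in addition to those 3) and 0 lower, where 13.8% of 13971 genes were called higher, 16.5% lower and 30.3% in either direction. The libraries of the siRNA groups did not overlap for 3 of the 10 genes with DMSO, against 18.8% of all genes, and for 5 with Bu, against 30.0%. The 4 genes called in each treatment became 2 without the libraries holding rod transcripts, which left E2f2 and E2f5 in both. Other transcripts moved with the siRNA as well. Of 13 tested genes listed as nuclear-retained transcripts, 5 were higher in siTGR5 cells with DMSO and 10 with Bu, and 0 lower in both (median log2 fold change 0.15 and 0.32). This list holds noncoding RNAs such as Malat1 and Neat1, and protein-coding genes such as Nktr and Pnisr. Gene counts do not tell nuclear from exported transcripts. Malat1 and Neat1 were not called with DMSO (adjusted p = 0.355 and 0.146). With Bu both were higher, by 0.69 and 0.52 on the log2 scale (adjusted p = 0.00146 and 8.32e-04). Of 5 fibroblast and myoid markers tested, 4 were lower with DMSO and 3 with Bu, and 0 higher in both, with Acta2 at -1.24 and -1.47 and Vim at -0.22 and -0.23. The summed level of the 6 markers in the table was 5650 to 6180 CPM in siGFP DMSO, 4890 to 5390 in siTGR5 DMSO, 5090 to 5530 in siGFP Bu and 4880 to 5410 CPM in siTGR5 Bu. The part of these transcripts in the values of the E2F genes was not tested. The siRNA comparisons share their siGFP and their siTGR5 libraries with the comparisons of Bu. For E2f8, the lower level with DMSO and the rise with Bu in siTGR5 cells thus rest on the same siTGR5 DMSO libraries. An effect of lower Gpbar1 and any other effect of the siRNA cannot be told apart.

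**Figure D3:**
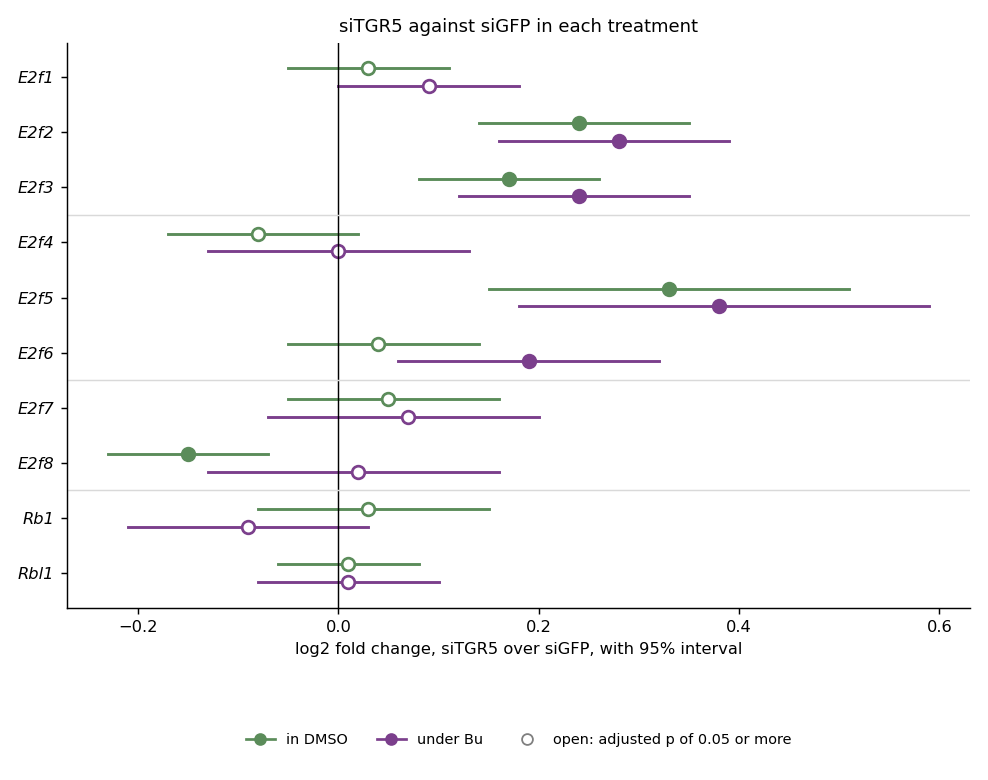
Log2 fold change of siTGR5 over siGFP cells (x axis) for each of the 10 genes (y axis), with DMSO and with Bu, with 95% intervals, filled where the adjusted p was under 0.05. E2f2, E2f3 and E2f5 are filled to the right in both treatments, from 0.17 to 0.38, and E2f8 lies to the left only with DMSO, at -0.15.

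The shares of the E2F classes were described within each library from the CPM per kb of exon union. E2f7 and E2f8 together made up 13.1% ± 0.409 (SD, n = 5) of the summed E2F level in siGFP DMSO and 15.6% ± 1.34 (SD, n = 4) in siGFP Bu. In siTGR5 cells the share was 12.2% ± 0.339 (SD, n = 5) with DMSO and 14.8% ± 0.64 (SD, n = 4) with Bu. In both siRNAs the lowest Bu library (13.6% and 14.1%) was above the highest DMSO library (13.4% and 12.7%). E2f4, E2f5 and E2f6 took 36.4% ± 0.653 and 33.8% ± 1.5 in siGFP DMSO and Bu, which overlapped, and 36.1% ± 0.628 and 33.7% ± 0.846 in siTGR5 cells, which did not. The activators took 50.5% and 50.6% in siGFP and 51.7% and 51.5% in siTGR5 cells, nearly the same with and without Bu. The size of these shares, and the overlap for E2f4 to E2f6 in siGFP cells, depended on the length used. With the deposited lengths, in which E2f7 is short, E2f7 and E2f8 took 37.5% and 43.2% in siGFP DMSO and Bu. In siTGR5 cells they took 37.0% and 42.2%, again without overlap. E2f4, E2f5 and E2f6 then took 32.8% and 28.6% in siGFP and 31.9% and 28.3% in siTGR5 cells, without overlap in either. The activators took 29.7% and 28.2%, and 31.0% and 29.4%. The shares repeat the values of the single genes and were not tested.

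**Figure D4:**
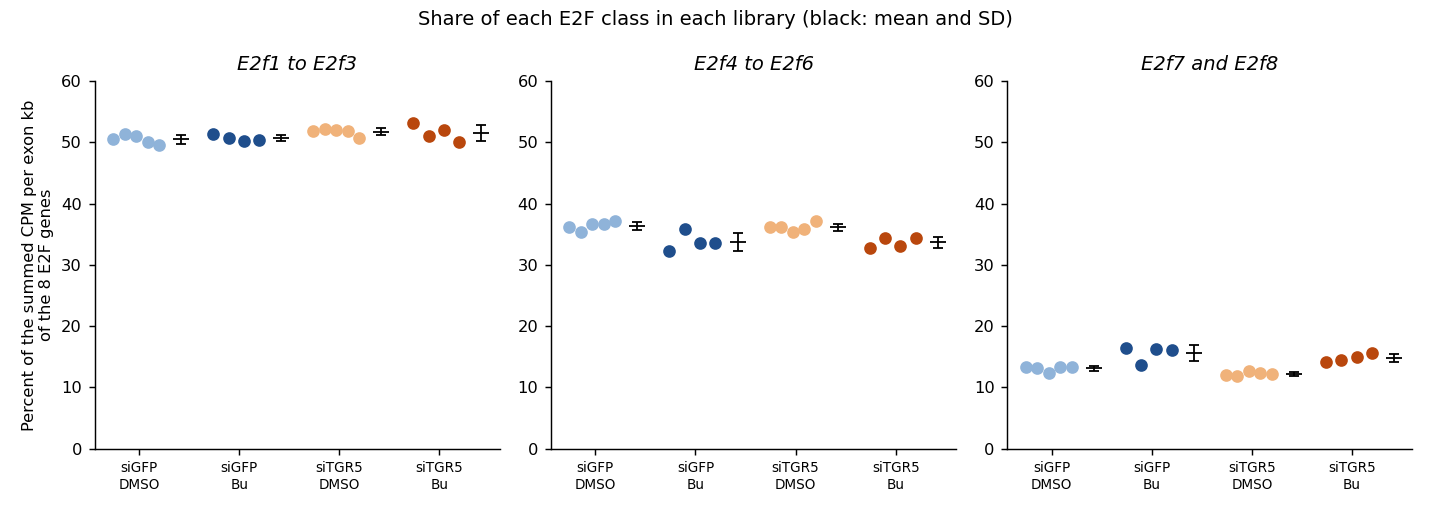
Percent of the summed CPM per kb of the 8 E2F genes (y axis, from 0) that each E2F class took in each library, by group (x axis), with group means and SD in black. The share of E2f7 and E2f8 is higher in every Bu library than in the DMSO libraries of the same siRNA, from 13.4% or less to 13.6% or more in siGFP cells and from 12.7% or less to 14.1% or more in siTGR5 cells.

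Partners and regulators of the E2F factors were taken as lists, compiled from textbook knowledge with earlier results known. Of the dimer partners, Tfdp1 had log2 fold changes with Bu of 0.09 in siGFP (adjusted p = 0.0842) and 0.05 in siTGR5 cells (adjusted p = 0.31). Tfdp2 had -0.10 in both, which passed the test in siTGR5 cells (adjusted p = 0.0264) and not in siGFP cells (adjusted p = 0.122), and without the libraries holding rod transcripts neither partner was called. Of 8 genes of the MuvB core and its activators, 6 were higher and 0 lower in each siRNA (median log2 fold change 0.22 and 0.31), where 14.3% and 15.5% of all genes were higher, and 5 and 6 were higher without the libraries holding rod transcripts. Mybl2, which encodes the B-MYB that joins MuvB in place of p130, rose from 17.1 ± 1.4 CPM (SD, n = 5) to 22.3 ± 1.1 (SD, n = 4) in siGFP cells, by 0.40 on the log2 scale (adjusted p = 4.00e-04). Foxm1, the mitotic activator that MuvB recruits, rose by 0.38 in siGFP and 0.55 in siTGR5 cells (adjusted p = 2.59e-09 in the latter), and Lin9 and Mybl1 rose in both as well. Of 12 genes of the E2F6 repressor complex, 2 were higher in siGFP cells, L3mbtl2 (0.21) and Hdac2 (0.19), and 4 in siTGR5 cells, with 0 lower in both and 2 left in siTGR5 cells without the libraries holding rod transcripts. These counts were near the 14.3% and 15.5% of all genes called higher, apart from the 4 in siTGR5 cells.

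The kinases that phosphorylate pocket proteins and their inhibitors moved unevenly. Of 15 genes, 5 were higher and 1 lower with Bu in each siRNA, with medians of 0.06 and 0.03, where 14.3% and 15.5% of all genes were higher and 13.8% and 15.2% lower. Cdkn1a, which encodes the kinase inhibitor P21, rose in siGFP cells by 0.53 (log2), from 402 ± 39.4 (SD, n = 5) to 574 ± 47.7 CPM (SD, n = 4, adjusted p = 7.16e-05), and by 0.40 in siTGR5 cells (adjusted p = 6.66e-05). Cdkn2c and Cdkn2d, which encode inhibitors of CDK4 and CDK6, and Ccne2, the cyclin E2 gene, rose in both siRNAs by 0.16 to 0.29. The called genes were not all the same in the siRNAs. Cdk4 was higher (0.11, adjusted p = 0.0443) and Cdkn1b lower (-0.15, adjusted p = 0.0218) in siGFP cells, and neither was called in siTGR5 cells. Ccnd2, the cyclin D2 gene, was the 1 gene of the 7 lists of partners, regulators and targets whose response differed between the siRNAs. The difference was 0.39 on the log2 scale (with a standard error of 0.081, adjusted p = 0.0168). Its fold change with Bu was -0.14 in siGFP (adjusted p = 0.0918) and 0.25 in siTGR5 cells (adjusted p = 0.00103). Ccnd2 was picked out after its values were seen. Without the libraries holding rod transcripts, the 5 higher became 2 in siGFP cells, near the share of all genes, and 4 in siTGR5 cells, where the 1 lower became 0.

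Many targets of the E2F factors rose with Bu. Of 36 E2F targets of G1/S, which serve DNA replication and nucleotide supply, 21 were higher and 1 lower in siGFP cells and 25 higher and 1 lower in siTGR5 cells, with a median log2 fold change of 0.17 in each, where 14.3% and 15.5% of all genes were higher. Without the libraries holding rod transcripts 20 were higher and 1 lower in each siRNA. The list means of log2 CPM were 6.37 to 6.41 in siGFP DMSO and 6.52 to 6.56 in siGFP Bu, and 6.19 to 6.28 and 6.41 to 6.46 in siTGR5 cells, without overlap within a siRNA. Mcm10, a replication initiation factor, rose in siGFP cells by 0.65 on the log2 scale (40.3 ± 0.568 to 62.8 ± 1.91 CPM, SD, n = 5 and 4, adjusted p = 5.69e-08), and Rrm2 and Cdc45 rose by 0.46 and 0.37. The gene that fell was Ung, the uracil DNA glycosylase, with log2 fold changes of -0.43 and -0.50. All 24 DREAM targets of G2/M, genes of mitosis that MuvB complexes control, were higher in both siRNAs, with medians of 0.61 and 0.75. Cdk1, the mitotic kinase, rose from 132 ± 4.77 to 215 ± 9.58 CPM (SD, n = 5 and 4) in siGFP cells, by 0.72 on the log2 scale (adjusted p = 5.82e-08), and Prc1, Ndc80 and Aurkb rose by 0.67 to 0.74. The score of the G2/M list kept replicate 2 of siGFP Bu apart from DMSO, unlike E2f7, since it stood at 6.93 there against 7.02 to 7.07 in the other Bu libraries and 6.37 to 6.47 in DMSO.

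Of 8 tested genes that E2F1 is known to induce in apoptosis, 6 were higher and 1 lower in siGFP cells and 4 higher and 1 lower in siTGR5 cells, where 14.3% and 15.5% of all genes were higher and 13.8% and 15.2% lower. Pmaip1, which encodes the BH3-only protein NOXA, was higher with Bu in siGFP cells by 0.59 on the log2 scale (80.4 ± 6.06 to 120 ± 1.65 CPM, SD, n = 5 and 4, adjusted p = 1.12e-06) and by 0.40 in siTGR5 cells (adjusted p = 1.19e-06). Casp8 and Apaf1 rose in both siRNAs, by 0.18 to 0.26. The lower gene was Bcl2l11 in both, at -0.17 and -0.14, and without the libraries holding rod transcripts 5 were higher and 0 lower in siGFP cells and 3 higher and 1 lower in siTGR5 cells. Between siRNAs in DMSO, 24 of the 36 targets of G1/S were lower and 0 higher in siTGR5 cells, and with Bu 19 were lower and 2 higher, where 14.4% and 16.5% of all genes were lower and 13.8% higher in both. Without the libraries holding rod transcripts 21 and 16 were lower. Of the 24 targets of G2/M, 2 and 1 were lower and 3 and 9 higher.

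**Figure D5:**
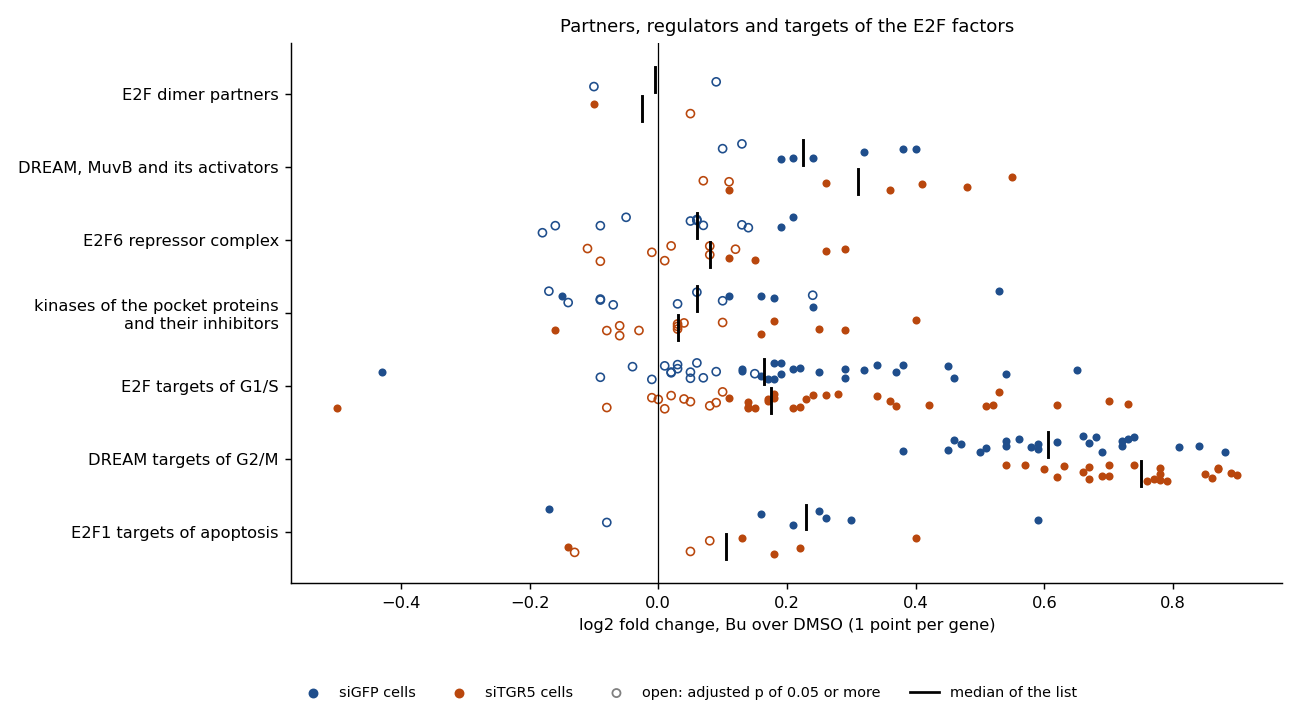
Log2 fold change of Bu over DMSO (x axis) of every tested gene of 7 lists of E2F partners, regulators and targets (y axis), in siGFP and siTGR5 cells, filled where the adjusted p was under 0.05, with the list median as a black bar. The G2/M targets all lie to the right with medians of 0.61 and 0.75, and the G1/S targets spread from Ung on the left (-0.43 and -0.50) to Mcm10 on the right (0.65 and 0.73).

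Several genes listed as nuclear-retained transcripts, noncoding and protein-coding, fell with Bu beside these results. Of 13 tested, 9 were lower and 0 higher in siGFP cells and 6 lower and 0 higher in siTGR5 cells. Among all genes 13.8% and 15.2% were lower. Malat1 fell by 1.13 and 0.60 on the log2 scale and Neat1 by 0.98 and 0.67. The summed level of the 16 transcripts in the table was 2300 to 2610 CPM in siGFP DMSO and 1490 to 1930 in siGFP Bu, and 2400 to 3290 and 1970 to 2340 CPM in siTGR5 cells, and Kcnq1ot1 was at 0 in 14 libraries. Their part in the values of the E2F genes was not tested.

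The study listed potential E2F4 targets among the genes it found deregulated in its vehicle and Bu groups, and the list holds 0 of the 10 members. Its 364 names, more than the study's text counts as E2F4 targets, matched 365 tested rows of the table. In the siGFP libraries 167 of these were higher with Bu, 197 lower and 1 not called, and since the list was chosen on a comparison of vehicle and Bu these counts are no independent evidence. In the siTGR5 libraries, which the sources do not name in that choice, 156 were higher, 154 lower and 55 not called. In these libraries 84.9% of the list was thus called in either direction, against 30.7% of all 14372 genes tested. The number not called became 90 without the libraries holding rod transcripts. A list of genes chosen for a change with Bu is called often with Bu whatever else its genes share, so these counts say nothing of E2F4. E2f4 itself did not pass the test in either siRNA.

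The levels of the 10 genes over the 18 libraries were also compared with those of 12332 genes whose mean reached 1 CPM, on log2(CPM + 0.5). The genes most like E2f1 were March9, Rab5c and Agpat1 (Pearson r 0.91, 0.9 and 0.89), those most like E2f8 were Gdf5, Dsn1 and Fam131b (0.91, 0.9 and 0.88), and those most like Rb1 were Rb1cc1, Wwp1 and Top2b (0.91, 0.88 and 0.87). Dsn1 encodes a kinetochore protein. Among the members, E2f7 and Rbl1 were the most alike (r = 0.9), and r was 0.63 once the group means were taken out. E2f7 and E2f8 gave 0.75 and 0.55, and E2f1 and E2f4 gave 0.56 and 0.75. Other pairs went opposite ways, with E2f4 and Rb1 at -0.73 and -0.73 and E2f1 and Rb1 at -0.68 and -0.68. E2f1 and Rbl1 gave -0.44 and -0.65. These values describe 18 libraries that fall into the same 4 groups and differ in depth, and carry no test.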

How the data were processed

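Poly(A) RNA of 18 GC1spg samples was sequenced by the study as 50-base single-end stranded libraries. Per the labels and the study's methods, reads were mapped to mm10 (the methods name Hisat2 and Bowtie2 2.1.0, the submitters' processing notes TopHat2), assigned to genes with HTSeq on Ensembl release 77 and compared with DESeq2 1.0.19. Whether counting used strand is not given in the sources used here. The authors deposited raw read counts per gene, which were used, and a signal normalized by size factors, with and without division by the median transcript length, which was not used. The log2 fold changes and p-values in the deposited table are the authors' own comparisons and were not used. The table holds 31643 genes, 1363 of them without any count.

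Counts were tested in edgeR 4.0.16 (R 4.3.3, limma 3.58.1) with TMM normalisation, filterByExpr (minimum count 10, minimum total 15) and the quasi-likelihood test, fitted on the groups compared or, for the difference between siRNAs, on all 18 libraries. Adjusted p-values are Benjamini-Hochberg over all genes tested, called under 0.05. CPM are counts scaled to the TMM-adjusted library size. A gene's values were also compared by a two-sided exact permutation test over libraries. Correlations used log2(CPM + 0.5). The fit was also run on counts simulated from its own model, which checks the code and not how well the model holds for these data. Exon unions came from GENCODE M21. Python 3.11.15 and matplotlib 3.10.9 made the figures.

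The members and lists were chosen with earlier results of these data known. Genes named were all 10 members, Gpbar1, up to 4 genes per list with the smallest p for Bu in siGFP cells (any list of 2 in full), and the 3 genes most like E2f1, E2f8 and Rb1. Rbl2, Ung, Bcl2l11, Ccnd2, Cdk4, Cdkn1b and the markers with their levels were named outside this rule, after their values were seen. Some genes that the rule names are not reported here. Alternatives were other size factors, DESeq2 1.42.0, other filters, a replicate block, all libraries in 1 fit, and leaving out each library or the 7 with rod transcripts. Levels per kilobase of exon union, and class shares by the deposited lengths, were added after seeing the data. Same-numbered libraries did not deviate together (25 pairs, r from -0.2 to 0.2, 6 over 0.1), so the numbers were not taken as pairs. No pair of libraries agreed within sampling noise (lowest chi-square per degree of freedom 2.78).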

Additional observations from a re-analysis of the deposited data

Results flagged for a closer look

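In 4 of 40 tests of a member's values within a group, 1 library lay far from the others by Dixon's criterion, which flags about 1 in 20 groups by chance. E2f7 measured 35.5 CPM in replicate 2 of siGFP Bu, against 42.4 to 42.9 CPM in the other 3, and this library also held rod transcripts. E2f2 measured 24.5 CPM in replicate 2 of siGFP DMSO, above the other 4, and 27.7 CPM in replicate 3 of siTGR5 Bu, which held rod transcripts too, below the other 3. Rbl1 measured 73.6 CPM in replicate 3 of siGFP DMSO, below the other 4.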

How the results depend on the processing

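Of 880 fold changes of members under the alternatives, 861 kept their side of the threshold, 9 lost a call, 10 gained one, and 0 reversed a call. The sign of the fold change moved in 16 values of 9 results, 0 of them called. The 2 members called with Bu in siGFP cells became 4 with a replicate block (E2f4 at -0.19, adjusted p = 0.0171, and Rb1 at 0.15, adjusted p = 0.0334, by edgeR), 4 without the libraries holding rod transcripts and 4 with all 18 libraries in 1 fit, and ranged from 2 to 4 with 1 library left out. The block left the other counts of called members as they were, at 4 in siTGR5 cells, 0 for the difference and 4 for each siRNA comparison. With 1 library left out, the counts were 4 in siTGR5 cells, 0 for the difference, 4 between siRNAs with DMSO and 3 to 4 with Bu. The 4 members called between siRNAs became 2 with DMSO and 2 with Bu without the libraries holding rod transcripts, where fewer libraries were fitted. The cause of these moves was not tested further. E2f5, with 203 to 461 reads per library, had the widest intervals, and changes within them were not detectable at this depth.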
